A study of Mus musculus with 15 samples.

Results

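The circadian clock genes and clock outputs described here are 10 mouse genes, chosen by symbol with earlier results of these data known and listed in every library: Arntl, Npas2, Per1, Per2, Per3, Nr1d1, Nr1d2, Dbp, Ciart and Usp2. They are 10 of the 55335 genes measured by RNA sequencing of whole colon tissue, and 9 of them were among the 14385 genes abundant enough to be tested, Ciart being the exception. The 15 mice formed 3 groups of 5. All of them received DSS (dextran sulfate sodium, a polymer that injures the lining of the colon), so no group without DSS is compared here. DSS mice have only that label. DSS+ICB mice also had immune checkpoint blockade, antibodies that release the brakes on T cells. The mice labelled DSS+ICB+F. prausnitzii gavage, written DSS+ICB+Fp from here on, were in addition fed the gut bacterium Faecalibacterium prausnitzii. Strain, sex, age, cage, the antibodies, any control antibody or gavage, and the hour and light schedule of tissue collection are not given in the sources used here. Collection hour and group therefore cannot be told apart in these data.

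The circadian clock is a transcription loop that runs in nearly all cells, including those of the gut. ARNTL (also called BMAL1) pairs with CLOCK or its relative NPAS2 and switches on genes through E-box sequences. Among these are the Per genes and Ciart, whose proteins repress that pair, Nr1d1 and Nr1d2 (REV-ERBα and REV-ERBβ), whose proteins repress Arntl and Npas2 through RORE sequences, and outputs such as Dbp. DBP in turn acts through D-box sequences, and USP2 is a deubiquitinase whose transcript cycles in many tissues. In a running clock Arntl and Npas2 peak roughly opposite to Dbp and Nr1d1, so the level of a clock gene in a single sample depends on the hour at which it was taken.

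The sites through which this loop works were searched for in the promoters of the members, to show where the letters stand. RefSeq windows on GRCm38.p6, from 250 bases before to 50 bases after each start, were found for 9 of the 10 members (11 starts). No window was available for Per2, so its promoter was not searched. For 9 of the 11 starts, the bases just after the start were found in a transcript of the gene. On either strand, the E-box CACGTG is present in 7.15% of all 32817 such windows, the E-box-like CACGTT in 4.69%, the RORE core TAGGTCA in 2.61%, the D-box TTATGTAA in 0.935% and the cAMP response element TGACGTCA in 1.79%. No search word contains another, and none of the members' matches overlap. Matches were found at 5 of the 9 members searched, and those shown here are all of them. The motif is in capitals and every sequence is written 5′ to 3′ on the strand of the gene. Ciart had 3 E-boxes, at positions -116, -58 and -44 from its start, in the 250 bases upstream (chr3:95882229-95882478, minus strand). Per3 had 2 D-boxes, at positions -205 and -158 (chr4:151044666-151044915, minus strand). Per1 had 1 E-box (chr11:69098771-69098800, plus strand), Nr1d1 had 1 E-box-like element on its other strand (chr11:98775388-98775417, minus strand) and Arntl had 1 RORE core, 31 bases after its second listed start (chr7:113207530-113207559, plus strand).
Ciart: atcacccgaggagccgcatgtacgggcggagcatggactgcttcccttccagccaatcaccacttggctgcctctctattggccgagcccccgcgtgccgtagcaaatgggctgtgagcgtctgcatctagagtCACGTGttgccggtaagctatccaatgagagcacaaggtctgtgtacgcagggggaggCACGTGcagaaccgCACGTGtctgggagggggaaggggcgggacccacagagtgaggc
Per3: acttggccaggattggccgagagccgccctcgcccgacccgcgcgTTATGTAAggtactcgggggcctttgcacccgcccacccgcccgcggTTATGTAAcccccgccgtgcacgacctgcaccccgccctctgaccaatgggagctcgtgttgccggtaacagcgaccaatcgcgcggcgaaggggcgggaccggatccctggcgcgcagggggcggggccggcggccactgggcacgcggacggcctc
Per1: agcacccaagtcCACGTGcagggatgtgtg
Nr1d1: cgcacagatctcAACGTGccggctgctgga
Arntl: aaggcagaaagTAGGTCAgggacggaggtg
A match is a description of letters, not evidence of binding, and binding was not measured in these mice.

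Values were deposited as FPKM, the number of fragments of a gene divided by the length of its transcript and by the library's mapped total. Depths estimated from the smallest steps between values were 15.2 to 24.6 M (mega) fragments per library, and 13243 to 14336 genes per library reached 1 FPKM. The least abundant members rest on few fragments, an estimated 22 to 104 per library for Dbp and 13 to 64 for Ciart. These depths and fragment numbers are rough, because whole reads could not be recovered from the steps. DSS+ICB mouse 3 stood apart. Ranked over genes, it correlated with the others at a median of 0.725, and DSS+ICB mouse 5 at 0.864, against at least 0.922 for the rest. Mouse 3 also had 33.2% of its FPKM in mitochondrially encoded genes, the highest share. The summed FPKM of 10 epithelial markers was 802 in that mouse, against 5459 to 6378 in DSS mice, and its 8 smooth muscle markers summed to 15050, against 1100 to 4803 in the other 14 mice. No epithelial or smooth muscle marker was at 0 in all libraries of a group. In whole tissue, fewer cells of a type and less RNA per cell cannot be told apart.

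Per unit of transcript length, the 2 activator genes had the highest medians among the members, and Per3, Dbp and Ciart the lowest. By median FPKM over the 15 mice the order was Npas2 at 7.89, Arntl at 7.34, Nr1d2 at 6.95, Nr1d1 at 6.26, Per2 at 4.83, Per1 at 3.90, Usp2 at 1.93, Per3 at 1.32, Dbp at 0.989 and Ciart at 0.526. Neighbours at the top were not separated. Npas2 exceeded Arntl in 11 of 15 libraries, Arntl exceeded Nr1d2 in 8, Nr1d2 exceeded Nr1d1 in 4, Nr1d1 exceeded Per2 in 10 and Per2 exceeded Per1 in 7. The lower steps were clearer, with Per1 above Usp2 in 14 libraries, Usp2 above Per3 in 13, Per3 above Dbp in 12 and Dbp above Ciart in 12. Arntl exceeded Dbp in all 15 mice, by 1.68-fold in DSS+ICB mouse 3 to 20.7-fold in DSS mouse 5 (median 7.75-fold). Against Nr1d1, Arntl was higher in 8 mice and lower in 7, with a ratio from 0.204 to 2.35. Npas2 and Arntl kept close, at ratios of 0.871 to 1.37.

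**Figure D1:**
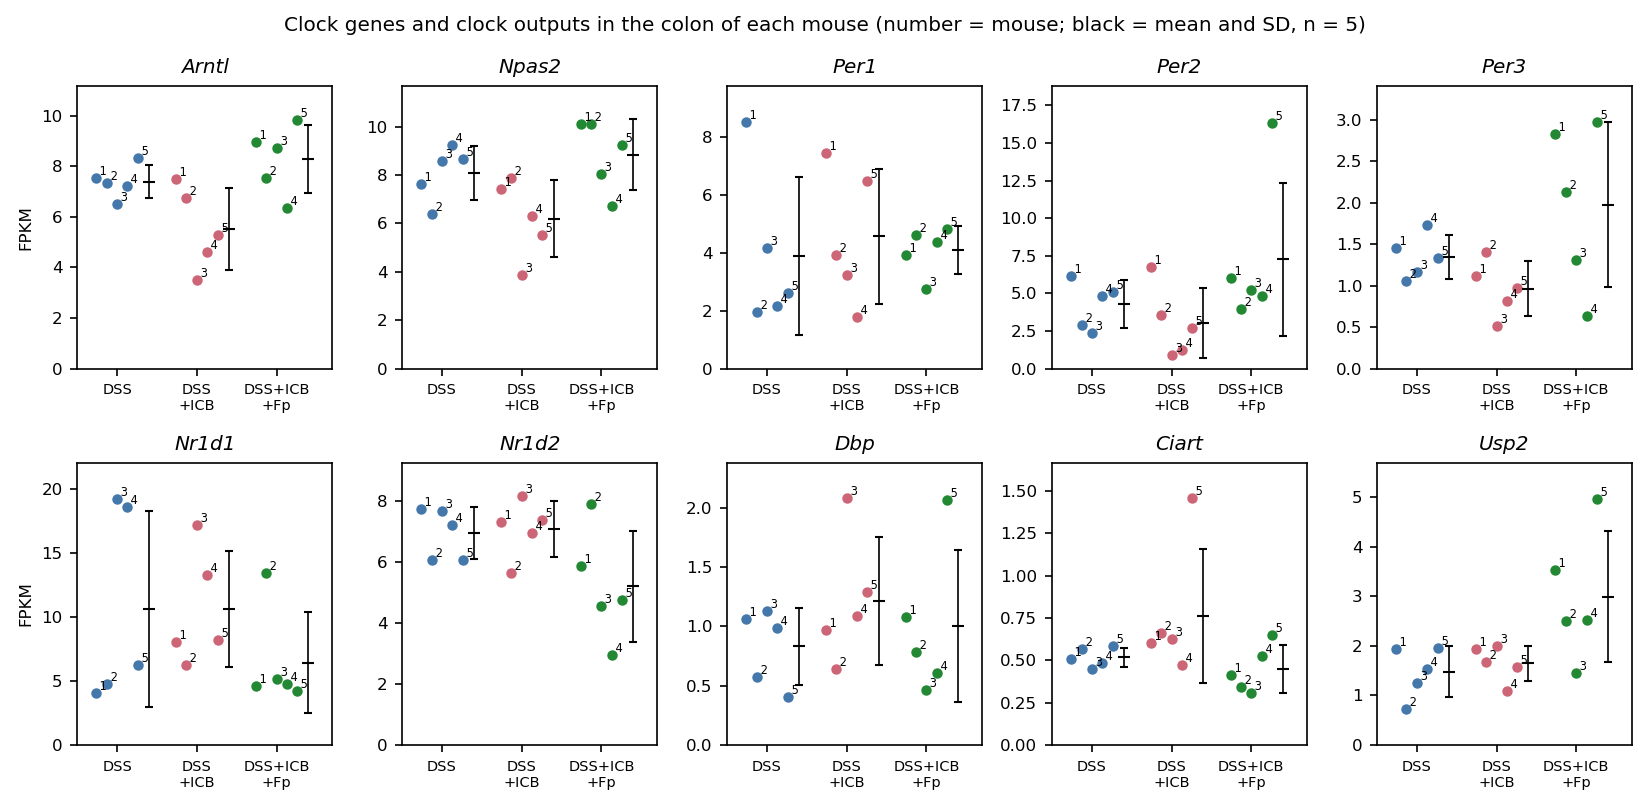
FPKM (vertical axes, each starting at 0) of the 10 clock genes and outputs in each of 15 mice, by group, with the number of the mouse beside its point and the group mean and SD (n = 5) as a black bar. All 10 genes overlap between groups, Arntl and Npas2 are lowest in DSS+ICB mouse 3, and Nr1d1 is above 13 FPKM in 5 mice spread over the 3 groups.

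The design asks how checkpoint blockade differed from DSS alone, how the added bacterium differed from blockade alone, and how the full combination differed from DSS. None of the 9 tested members passed a Benjamini-Hochberg adjusted p under 0.05 (limma on log2(FPKM + 1), adjusted over all 14385 genes) in any of them. The background was low as well, with 0.0209% of all tested genes called in DSS+ICB against DSS, 0.132% in DSS+ICB+Fp against DSS+ICB and 0% in DSS+ICB+Fp against DSS. At an unadjusted p under 0.05, 2 members were lower in DSS+ICB than in DSS (background 4.22% of all genes) and 0 higher (background 7.08%). In DSS+ICB+Fp against DSS+ICB, 5 members were higher (background 9.34%) and 1 was lower (background 12.4%). In DSS+ICB+Fp against DSS, 1 was higher (background 0.591%) and 1 lower (background 0.82%). The median log2 difference of the 9 members was 0.02, 0.47 and 0.14 in these comparisons, against 0.02, -0.04 and -0.01 for all tested genes. No member separated any 2 groups without overlap, where 1.54%, 3.41% and 0.389% of all tested genes did so. Each pair of comparisons shares a group, so they are not independent of each other.

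**Figure D2:**
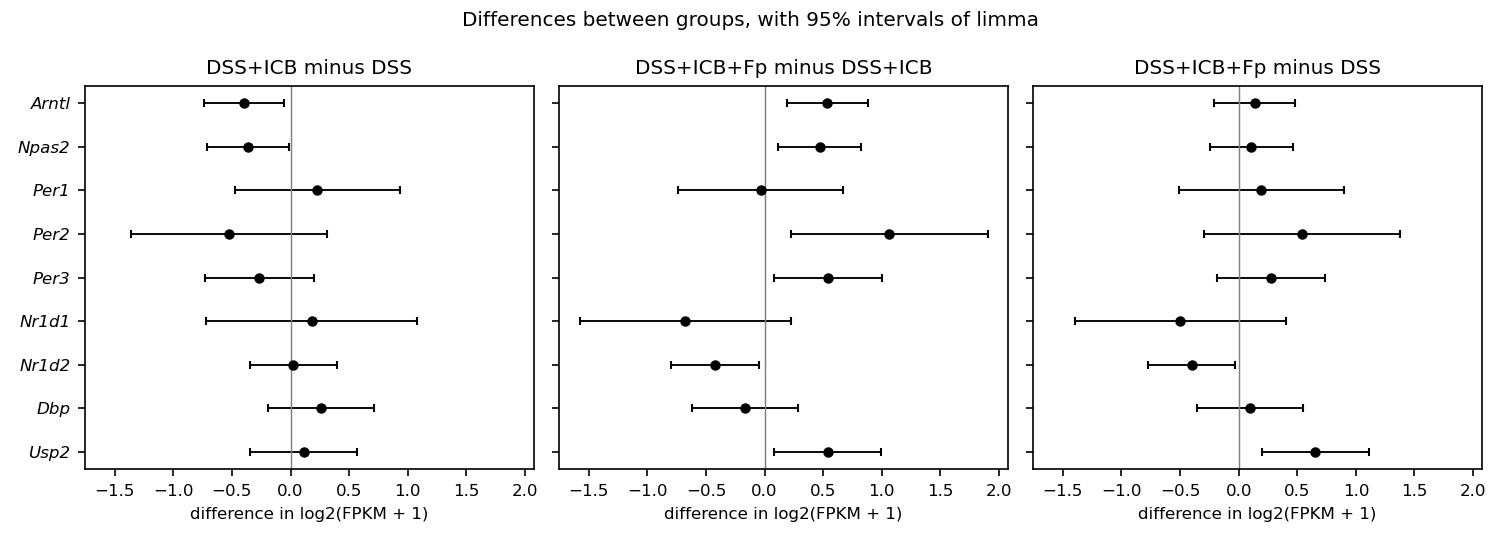
Difference in log2(FPKM + 1) between groups for the 9 tested members (points) with the 95% intervals of limma (bars, not adjusted for the number of genes), in 3 panels for the 3 comparisons. In DSS+ICB+Fp minus DSS+ICB, the intervals of Arntl, Npas2, Per2, Per3 and Usp2 lie above 0 and that of Nr1d2 below it, while no member passed the adjusted threshold in any panel.

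Arntl (ENSMUSG00000055116, chr7:113207465-113314126, GRCm38), the activator without which the loop stops, was at 7.55, 7.34, 6.51, 7.22 and 8.33 FPKM in the DSS mice. It was at 7.49, 6.75, 3.51, 4.59 and 5.27 in DSS+ICB and at 8.96, 7.55, 8.73, 6.35 and 9.84 in DSS+ICB+Fp. DSS+ICB mice 3, 4 and 5 lay below every DSS mouse, and 4 of 5 DSS+ICB+Fp mice lay above every DSS+ICB mouse. The means were 7.39 ± 0.655, 5.52 ± 1.61 and 8.29 ± 1.35 FPKM (SD, n = 5 each). On the log2(FPKM + 1) scale Arntl was 0.53 ± 0.16 (SE) higher in DSS+ICB+Fp than in DSS+ICB, with a 95% interval of 0.19 to 0.88 and an adjusted p of 0.108 by limma, the smallest of any member. Against DSS, DSS+ICB was lower by 0.40 ± 0.16 (limma, adjusted p = 0.43), and DSS+ICB+Fp differed by 0.14, with an interval of -0.21 to 0.48. Without DSS+ICB mouse 3 the DSS+ICB+Fp difference was 0.41 (limma, adjusted p = 0.125), and without mice 3 and 5 it was 0.36.

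Npas2 (ENSMUSG00000026077, chr1:39193731-39363236), which can stand in for Clock as the partner of ARNTL, was arranged in the same way. It was at 7.61, 6.39, 8.56, 9.23 and 8.68 FPKM in DSS, at 7.41, 7.89, 3.87, 6.29 and 5.51 in DSS+ICB, and at 10.1, 10.1, 8.03, 6.71 and 9.26 in DSS+ICB+Fp. Again 3 DSS+ICB mice were below all DSS mice and 4 DSS+ICB+Fp mice above all DSS+ICB mice. The difference was 0.47 ± 0.17 in DSS+ICB+Fp against DSS+ICB (limma, adjusted p = 0.137) and -0.36 ± 0.17 in DSS+ICB against DSS (limma, adjusted p = 0.435). The first of these was 0.34 without DSS+ICB mouse 3.

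The 3 Per genes encode repressors of the activator pair. Per2 (ENSMUSG00000055866, chr1:91415982-91459324) was at 6.17, 2.91, 2.39, 4.85 and 5.08 FPKM in DSS, at 6.73, 3.56, 0.892, 1.21 and 2.7 in DSS+ICB, and at 6.02, 3.95, 5.25, 4.83 and 16.3 in DSS+ICB+Fp. Its highest value by far was DSS+ICB+Fp mouse 5, its 2 lowest were DSS+ICB mice 3 and 4, and DSS+ICB mouse 1 was above all DSS mice. Per2 had the largest difference of any member in DSS+ICB+Fp against DSS+ICB, 1.06 ± 0.39 with an interval of 0.23 to 1.90 (limma, adjusted p = 0.149), which was 0.76 without DSS+ICB+Fp mouse 5.

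Per3 (ENSMUSG00000028957, chr4:151003652-151044665) was at 1.45, 1.05, 1.16, 1.73 and 1.33 FPKM in DSS and at 1.11, 1.41, 0.507, 0.819 and 0.968 in DSS+ICB. In DSS+ICB+Fp it was at 2.83, 2.13, 1.31, 0.632 and 2.97. Mice 1, 2 and 5 of this group exceeded all other mice, while mouse 4 was below every DSS mouse. The difference from DSS+ICB was 0.54 ± 0.22 (limma, adjusted p = 0.171). Without DSS+ICB+Fp mouse 4 it was 0.74 and passed the threshold (limma, adjusted p = 0.0407). Per1 (ENSMUSG00000020893, chr11:69095217-69109960), the Per gene that also responds quickly to outside signals, ranged from 1.95 to 8.49 FPKM in DSS, 1.77 to 7.44 in DSS+ICB and 2.75 to 4.80 in DSS+ICB+Fp. Mouse 1 was the highest of its group in both DSS and DSS+ICB. Its difference was 0.23 in DSS+ICB against DSS and -0.03 in DSS+ICB+Fp against DSS+ICB, with an interval of -0.74 to 0.67 for the latter. Single mice moved both values. The first was 0.50 without DSS mouse 1 and 0.05 without DSS+ICB mouse 1, and -0.01 with library quality weights. The second ran from -0.26 without DSS+ICB mouse 4 to 0.14 without DSS+ICB mouse 1, and its sign also turned under median-of-ratios and upper-quartile scaling (0.01 and 0.03).

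Ciart (ENSMUSG00000038550, chr3:95878503-95882251), another repressor of the activator pair, was the least abundant member. It was at 0.452 to 0.588 FPKM in DSS, 0.470 to 1.46 in DSS+ICB and 0.305 to 0.652 in DSS+ICB+Fp, and 4 of 5 DSS+ICB mice lay above every DSS mouse. With no filter on low values it could be fitted, and DSS+ICB+Fp was 0.27 lower than DSS+ICB on the log2(FPKM + 1) scale, written as a difference of -0.27 (limma, adjusted p = 0.371 over 33951 genes).

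Nr1d1 (ENSMUSG00000020889, chr11:98767932-98775333), which encodes REV-ERBα, varied within each group by more than the group means differed. The DSS mice were at 4.08, 4.74, 19.2, 18.6 and 6.26 FPKM, the DSS+ICB mice at 8.07, 6.22, 17.2, 13.3 and 8.22, and the DSS+ICB+Fp mice at 4.61, 13.4, 5.18, 4.74 and 4.20. DSS mice 3 and 4, DSS+ICB mice 3 and 4 and DSS+ICB+Fp mouse 2 were above 13 FPKM, and the other 10 mice were at 8.22 or less. Within DSS alone the highest mouse was 4.69-fold above the lowest. All DSS+ICB+Fp mice but mouse 2 lay below every DSS+ICB mouse, and the difference was -0.68 ± 0.42 with an interval of -1.58 to 0.22 (limma, adjusted p = 0.357). Nr1d1 shares 263 exon bases, 8.55% of its exon length, with Thra, the thyroid hormone receptor gene on the opposite strand. Whether strand was used in counting is not given in the sources used here, so reads from that stretch cannot be assigned. Thra was at 7.24 to 21.2 FPKM, and its 4 highest libraries were among the 5 with Nr1d1 above 13 FPKM.

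Nr1d2 (ENSMUSG00000021775, chr14:18204054-18239127), the REV-ERBβ gene, varied less. It was at 7.76, 6.06, 7.67, 7.23 and 6.07 FPKM in DSS, at 7.32, 5.66, 8.17, 6.95 and 7.40 in DSS+ICB, and at 5.88, 7.90, 4.56, 2.97 and 4.75 in DSS+ICB+Fp. Of the DSS+ICB+Fp mice, 4 were below all DSS mice, the exception being mouse 2, which was also the mouse of that group with high Nr1d1. The difference was -0.43 ± 0.18 against DSS+ICB (limma, adjusted p = 0.18) and -0.40 ± 0.18 against DSS (limma, adjusted p = 1).

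Dbp (ENSMUSG00000059824, chr7:45705088-45710203), the output transcription factor that binds D-boxes, was at 1.06, 0.574, 1.13, 0.989 and 0.402 FPKM in DSS. It was at 0.967, 0.642, 2.08, 1.09 and 1.29 in DSS+ICB and at 1.08, 0.785, 0.465, 0.609 and 2.07 in DSS+ICB+Fp. Its 2 highest mice were DSS+ICB mouse 3 and DSS+ICB+Fp mouse 5, which were the lowest and the highest of all mice for Arntl. The groups overlapped widely, and DSS+ICB+Fp differed from DSS+ICB by -0.17 with an interval of -0.62 to 0.29 (limma, adjusted p = 0.677). This value rested on single mice, being -0.04 without DSS+ICB mouse 3, -0.07 without DSS+ICB+Fp mouse 3, -0.10 without DSS+ICB+Fp mouse 4 and -0.33 without DSS+ICB+Fp mouse 5. Dbp shares 18.0% of its exon bases with Sphk2 on the opposite strand, so reads from that stretch cannot be assigned either. Sphk2, at 2.07 to 15.1 FPKM, was lowest in DSS+ICB mouse 3 and highest in DSS+ICB+Fp mouse 5, the 2 mice with the highest Dbp.

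Usp2 (ENSMUSG00000032010, chr9:44067021-44095627) was at 1.93, 0.720, 1.25, 1.53 and 1.96 FPKM in DSS, at 1.93, 1.67, 1.99, 1.1 and 1.57 in DSS+ICB, and at 3.53, 2.5, 1.45, 2.52 and 4.97 in DSS+ICB+Fp. All DSS+ICB+Fp mice but mouse 3 were above all 10 mice of the other groups. Usp2 was 0.54 ± 0.21 above DSS+ICB (limma, adjusted p = 0.17) and 0.65 ± 0.21 above DSS, with an interval of 0.20 to 1.11 for the latter (limma, unadjusted p = 0.00817, adjusted p = 1). In DSS+ICB against DSS the difference was 0.11 with an interval of -0.34 to 0.57. The sign of this difference turned with library quality weights (-0.07) and without DSS mouse 2 (-0.01). Usp2 shares 200 exon bases, 4.15% of its exon length, with Gm49380 and with Gm39325, both on the opposite strand. Reads from shared bases cannot be assigned here either.

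Across mice, Arntl moved with Npas2, Per2 and Per3. Over the 15 libraries Pearson's r of log2(FPKM + 1) was 0.874 for Arntl and Per2, 0.849 for Arntl and Npas2 and 0.780 for Arntl and Per3. Two-sided permutation tests with 100000 resamples, adjusted over the 17 relations of a member with Arntl or Dbp, gave adjusted p = 0.00034, 0.00178 and 0.00555 (raw 2e-05, 0.00021 and 0.00098). Spearman's rho was 0.829, 0.771 and 0.807 (permutation tests, adjusted p = 0.00493, 0.00629 and 0.00501). After subtracting each group's mean, r was 0.831, 0.723 and 0.676 (permutation tests, adjusted p = 0.00255, 0.0195 and 0.0362). Spearman's rank correlation of these centred values was 0.836, 0.589 and 0.618, and it passed for Per2 but not for Npas2 or Per3 (permutation tests, adjusted p = 0.00408, 0.082 and 0.0731). The tests on centred values shuffled them over all 15 mice as if no group means had been subtracted, so their p-values may be too small. High correlations with Arntl were common in these libraries. Among all other tested genes, 2.46% had an r with Arntl at least as high as that of Per2, 4.10% as that of Npas2 and 8.95% as that of Per3. After subtracting group means these shares were 2.16%, 10.1% and 14.2%.

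The relation of Arntl and Per2 held in each subset of the libraries that was tried, but these subsets left out only DSS+ICB mice. DSS+ICB+Fp mouse 5, the highest of all mice for both genes (9.84 and 16.3 FPKM), was not left out. The relation of Arntl and Npas2 rested in part on DSS+ICB mice. Leaving out DSS+ICB mice 3 and 4, the farthest from the median of Arntl, gave r = 0.752 for Per2, 0.720 for Per3 and 0.679 for Npas2 (13 mice, permutation tests, adjusted p = 0.0439, 0.0439 and 0.0592). Without DSS+ICB mouse 3 alone the values were 0.832, 0.730 and 0.715 (permutation tests, adjusted p = 0.00391, 0.0218 and 0.0218). Arntl and Nr1d1 were opposed, at r = -0.58, which missed the threshold (permutation test, adjusted p = 0.0854). Arntl and Dbp had r = -0.36 over all mice (permutation test, adjusted p = 0.347), and r = -0.01 without DSS+ICB mouse 3. None of the 8 relations of Dbp with members other than Arntl passed, the highest being 0.416 with Usp2 (permutation test, adjusted p = 0.347).

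**Figure D3:**
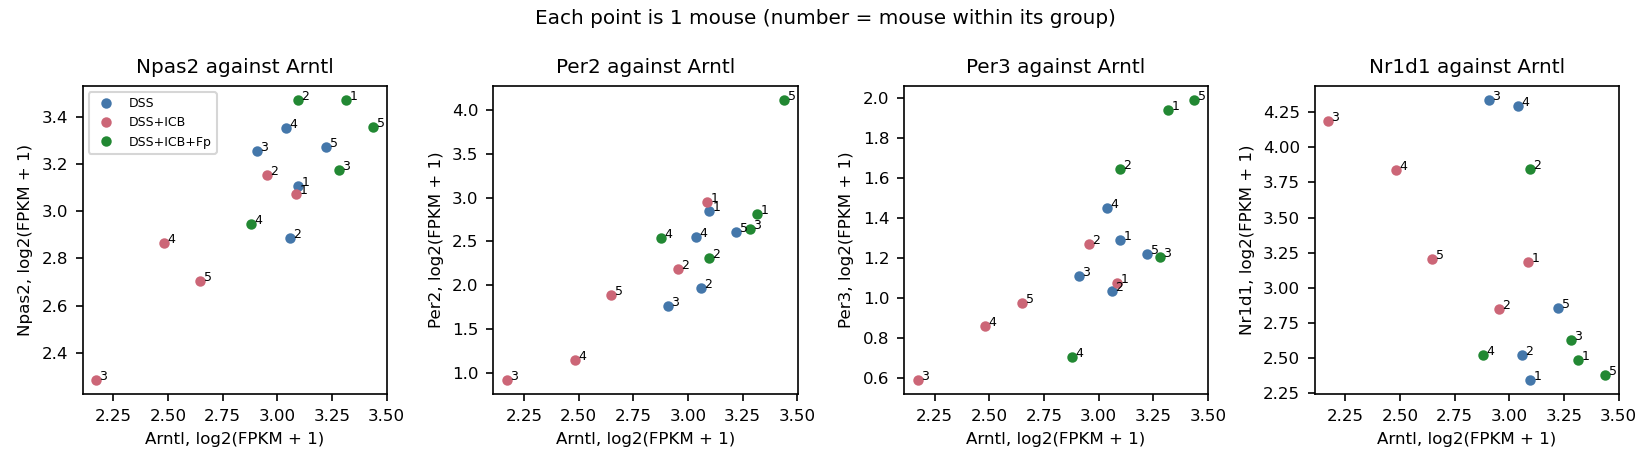
Npas2, Per2, Per3 and Nr1d1 (vertical axes) against Arntl (horizontal axes), all as log2(FPKM + 1), with 1 numbered point per mouse, coloured by group. Per2 climbs with Arntl (r = 0.874) over the whole range, and Nr1d1 shows high and low mice at like levels of Arntl. DSS+ICB mice 3, 4 and 5 have the lowest Arntl in every panel and extend the relations with Npas2 and Per2 at their lower left.

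**Figure D4:**
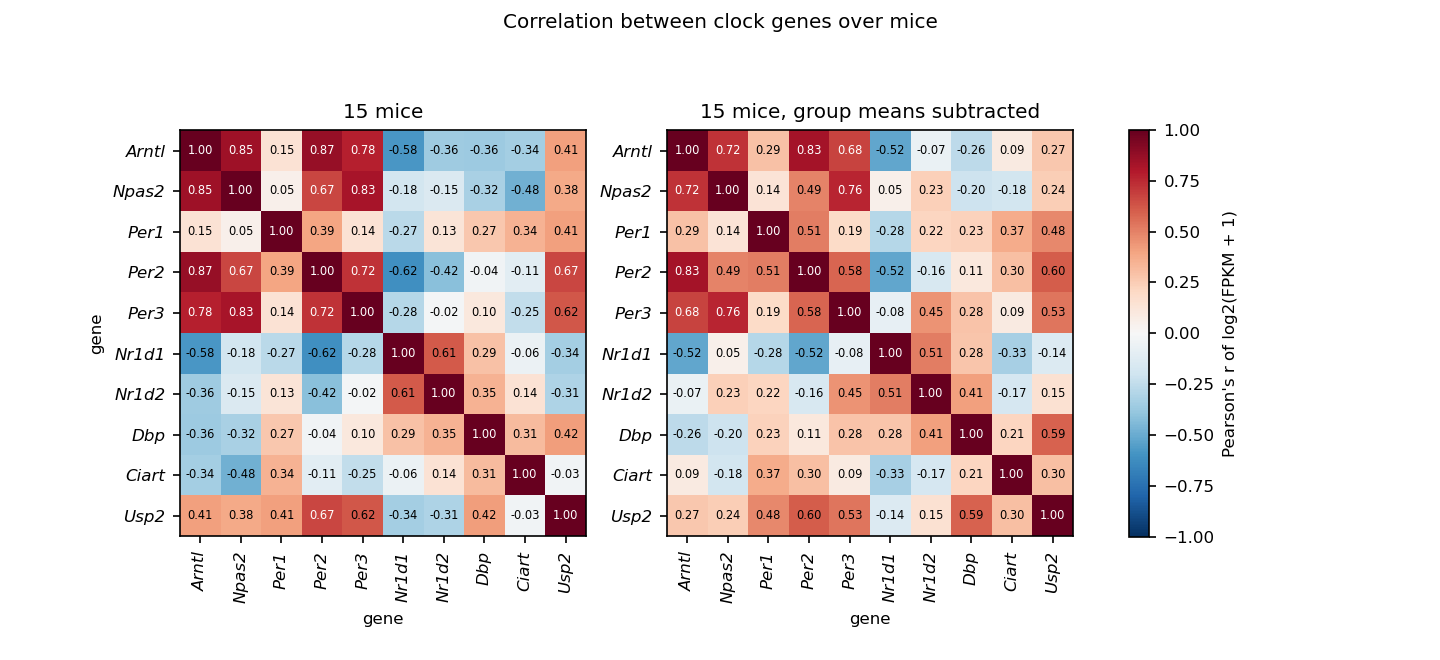
Pearson's r of log2(FPKM + 1) between all pairs of the 10 genes over 15 mice, before (left) and after (right) subtracting group means, coloured from -1 (blue) to 1 (red). Arntl, Npas2, Per2 and Per3 form a block of r from 0.67 to 0.87 on the left and from 0.49 to 0.83 on the right, with Dbp and Ciart outside it.

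Summed markers of tissue composition were set beside the members. Abundant markers weigh most in such sums. Among the epithelial markers, the DSS means were 1986 FPKM for Krt8 and 1391 for Krt19, against 52.1 for Slc26a3. In DSS+ICB the 10 epithelial markers summed to 802 to 6816 FPKM, with mice 4 and 5 at 4200 and 4310, against 5289 to 7201 in DSS+ICB+Fp. The 3 DSS+ICB mice with the lowest epithelial sums, 3, 4 and 5, were the 3 with the lowest Arntl. Over the 15 mice r with the epithelial sum was 0.735 for Arntl and 0.726 for Npas2 (permutation tests, adjusted p = 0.0277 and 0.0486 over 20 relations chosen after values were seen), but not by rho, which was 0.264 and 0.157 (permutation tests, adjusted p = 0.619 and 0.885). Without the 2 mice farthest from the median sum, DSS+ICB mice 3 and 4, r was 0.131 and 0.078 (permutation tests, adjusted p = 0.839 and 0.843). Dbp had r = -0.65 and rho = -0.84 with the epithelial sum (permutation tests, adjusted p = 0.0277 and 0.0042), and r = -0.64 without those 2 mice (permutation test, adjusted p = 0.226). The smooth muscle sum had r = -0.72 with Arntl and 0.635 with Nr1d1 (permutation tests, adjusted p = 0.0277 and 0.0404). Neither call held with rho, at -0.58 and 0.564 (permutation tests, adjusted p = 0.116 for both), or without the 2 farthest mice, DSS+ICB mice 2 and 3, at r = -0.59 and 0.604 (permutation tests, adjusted p = 0.226 for both). Of 6 tested neutrophil markers, 5 were called lower in DSS+ICB+Fp than in DSS+ICB (background 0.132% of all genes, either direction). With only these 2 groups fitted, 0 of 14385 genes were called, so these 5 calls did not hold there. The 7 listed neutrophil markers summed to 20.3 to 57.3 FPKM in DSS, 127 to 2018 in DSS+ICB and 1.46 to 32.6 in DSS+ICB+Fp. None of them was at 0 throughout a group. The part of tissue composition in the differences of the clock genes was not tested.

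The other genes of the clock gave no call either. Of 12 further core clock genes 8 were tested, and 0 passed in any comparison. At an unadjusted p under 0.05, 3 of the 8 were higher in DSS+ICB+Fp than in DSS+ICB (background 9.34% of all genes). Among them was Cry2, a repressor that works with the PER proteins. Cry2 was at 2.2 to 3.84 FPKM in DSS, 1.54 to 3.6 in DSS+ICB and 2.23 to 7.33 in DSS+ICB+Fp. Its difference in DSS+ICB+Fp against DSS+ICB was 0.57 ± 0.22 (limma, adjusted p = 0.166), and the groups overlapped.

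Among 10 further clock-controlled factors and outputs, 8 were tested and 0 passed. Nfil3, the repressor that competes with DBP for D-boxes, was at 2.10 to 3.43 FPKM in DSS, 2.89 to 15.9 in DSS+ICB and 2.04 to 8.33 in DSS+ICB+Fp, with differences of 1.14 and -0.99 in the first 2 comparisons (limma, adjusted p = 0.418 and 0.164). Klf10 and Wee1, a zinc finger factor and a cell cycle kinase, differed by -0.51 and 0.41 in DSS+ICB+Fp against DSS+ICB (limma, adjusted p = 0.198 and 0.386).

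Per1 and several other clock genes also answer to glucocorticoids and to acute stimulation, so both kinds of response genes were counted. None of 9 glucocorticoid response genes passed in any comparison, with medians of -0.01, 0.18 and 0.17 in the order used above. Tsc22d3, a glucocorticoid-induced gene, differed by 0.51 in DSS+ICB+Fp against DSS+ICB, while Cebpd differed by -0.71 (limma, adjusted p = 0.207 and 0.274). Dusp1, which is on both lists, had the smallest adjusted p of these 9 genes in that comparison and is given below. None of 10 immediate early genes passed, 9 of them being below 0 in DSS+ICB+Fp against DSS+ICB with a median of -0.88, against -0.04 for all tested genes. Their smallest adjusted p values there were 0.0844 for Egr2 (-1.06), 0.103 for Dusp1 (-1.43) and 0.109 for Nr4a1 (-1.83), all by limma.

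Outside the members, the tested genes most like Arntl over the 15 libraries, by Pearson's r on log2(FPKM + 1), were Fbh1 (0.954), Dnmbp (0.951), Tfcp2l1 (0.945), Trp53bp2 (0.944) and Syap1 (0.944), each higher than any member. Without DSS+ICB mouse 3 their r was 0.897 to 0.931. Those most like Dbp were Setbp1 (0.868), Tspan18 (0.857), Irf2bpl (0.856), Tbc1d8 (0.854) and Ccdc157 (0.838), with r of 0.765 to 0.816 without that mouse. They were picked as the highest of 14368 genes, so these values are descriptions and carry no test.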

How the data were processed

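RNA of colon tissue from 15 mice was sequenced, 1 library and 1 deposited table per mouse. Per the submitters' processing notes, the authors used FastQC, STAR 2.5, Cuffnorm and DESeq with mm10. The deposited FPKM values are the authors' own, and further scaling between libraries is not stated. Whole reads could not be recovered (29.3% to 35.9% of low values within 0.03 log2 of a whole step), so no count test was used.

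Of 55335 genes, 55154 matched a symbol in GENCODE M21. Genes of at least 1 FPKM in at least 5 libraries were tested with limma 3.58.1 in R 4.3.3 (trend, robust, two-sided, Benjamini-Hochberg) on log2(FPKM + 1), which understates the fold of low genes. All 15 libraries entered 1 fit with 3 group means. Correlations were tested by permutation (smallest possible p 1e-05) in Python 3.11.15 with scipy 1.17.1. Nothing in the labels says whether mice shared a cage or litter, and p-values measure only the spread between these libraries. Members and lists were chosen with earlier results of these data known. Named genes were all members, at most 3 genes per other list with the smallest p, and the 5 genes most like Arntl and Dbp. In 1 list, 2 genes that the rule names are not reported here. Marker lists were fixed for 11 cell types. On simulated data for DSS+ICB+Fp against DSS+ICB (14385 genes, 200 changed), 62.5% of log2 changes of 1 and 97% of changes of 2 were recovered, with 6 and 5 false calls, and 0 calls were made with none changed. Alternatives covered scaling, pseudocount, filter, weights, groups fitted and libraries left out.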

Additional observations from a re-analysis of the deposited data

Results flagged for a closer look

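Each of the 10 genes was checked in each of the 3 groups for a mouse set apart from the other 4 (a gap to the nearest mouse over 0.71 of the group's range, Dixon's 95% limit for 5 values). Of 30 such sets 3 exceeded the limit, all at the high end. Chance gives about 1 in 20 for independent sets of normally distributed values. These were untransformed FPKM of genes measured in the same mice, so that rate may not hold here. Per2 in DSS+ICB+Fp mouse 5 was at 16.27 FPKM, with the next mouse at 6.016. Nr1d1 in DSS+ICB+Fp mouse 2 was at 13.41 FPKM, with the next at 5.177, a level within the range of the other groups. Ciart in DSS+ICB mouse 5 was at 1.458 FPKM, with the next at 0.660, on an estimated 64 fragments.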

How the results depend on the processing

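The count of members passing the threshold was 0 in DSS+ICB against DSS and in DSS+ICB+Fp against DSS under all 25 alternatives of each. In DSS+ICB+Fp against DSS+ICB it became 1 with library quality weights (Arntl, 0.50, limma adjusted p = 0.043), and leaving out each library in turn gave 0 to 1: 1 without DSS+ICB mouse 1 (Arntl, 0.64, limma adjusted p = 0.045) and 1 without DSS+ICB+Fp mouse 4 (Per3, 0.74, limma adjusted p = 0.0407). Over the alternatives the adjusted p of Arntl in that comparison ran from 0.043 to 0.251 and that of Per3 from 0.0407 to 0.369. The cause was not tested. Of the 17 correlations, 3 passed as reported and 1 (Arntl and Per2) passed with Spearman's rho after subtracting group means, an alternative chosen after seeing the data. The relation of Arntl and Npas2 also missed the threshold without DSS+ICB mice 3 and 4 (r = 0.679, permutation test, adjusted p = 0.0592). Without DSS+ICB mice 3 and 5 it missed as well (r = 0.632, permutation test, adjusted p = 0.0962). No called result changed sign. Signs of small uncalled differences turned for Dbp, Nr1d1, Nr1d2, Per1 and Usp2 under some alternatives, Nr1d2 and Per1 in 7 each. With a filter at 5 FPKM, Per1, Per3, Dbp and Usp2 were not tested. No paired analysis was possible because the labels give mice no number that matches between groups. Depth limits Dbp and Ciart most.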
